A study of Schima superba and Cryptocarya concinna with 24 samples.

Results

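Metallothioneins of the subtropical trees Schima superba and Cryptocarya concinna were described in leaves of different age and light through 4 assembled transcripts (unigenes). These were Unigene13627 and Unigene37255 in S. superba and Unigene4583 and Unigene16265 in C. concinna. They were picked by their identifiers, each in the table of its own species, and all 4 had a metallothionein as best protein database hit. They were 4 of 16 unigenes with such a hit, 8 in each species, and of 117867 unigenes in all, 57053 in S. superba and 60814 in C. concinna. Measured levels of these libraries went into the choice of the 4, so their differences between leaf ages and between light levels are given as a description, with no test.

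Metallothioneins are small, cysteine-rich proteins of the cytosol whose thiol groups bind zinc and copper ions. Plants carry several types that differ in the spacing of their cysteines, and in the herb Arabidopsis thaliana types 2 and 3 are the ones known for high transcript levels in leaves. They are known for buffering copper and zinc, for storing copper released as leaves age, and for scavenging reactive oxygen.

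Seedlings collected in the forest of Dinghu mountain grew either in full sunlight (full light) or under a black nylon net that passed 30% of it (low light). Young and mature leaves were taken in each light, which gave 4 groups of 3 libraries in each species and 24 libraries in all. Plant age is not in the labels, nor whether each of the 3 replicates was a plant of its own, so the p-values reflect the spread among these libraries alone, part of which may be technical. RNA came from a different kit in each species, and each species had its own table, so no level was tested between species.

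Values are FPKM, mapped fragments scaled to the length of the unigene and to the size of the library, which put levels of different unigenes on a scale per length. Means are given ± SD with n = 3 unless stated otherwise. Log2 changes are differences of group means on the log2(FPKM + 1) scale, which understates changes of low unigenes. They are written young minus mature leaves for age and full minus low light for light, so a negative age value means a higher level in mature leaves. The age and light comparisons of a species share libraries with each other.

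The number of reads behind each library is unknown. From the smallest steps between values, the libraries had a relative depth of 0.956 to 1.03 in S. superba and of 0.914 to 1.04 in C. concinna. The FPKM of a library added up to 769593 to 867163 in S. superba and to 788453 to 977277 in C. concinna. Markers of leaf tissues differed between the groups as well. Mesophyll markers (56 unigenes of the Rubisco small subunit and chlorophyll a-b binding proteins) summed in S. superba to 13325 to 20134 FPKM in young leaves in full light, 35658 to 50524 in young leaves in low light, 47231 to 70724 in mature leaves in full light and 64781 to 81355 in mature leaves in low light. The 67 such unigenes of C. concinna summed to 17233 to 41608 FPKM in young and 38184 to 67862 in mature leaves. Cyclins and histone H4, markers of dividing tissue, summed to 463 to 1649 FPKM in young and 151 to 212 in mature S. superba, with 18 of 21 against 10 of 21 unigenes at a group mean of 1 FPKM or more. Those of C. concinna were at 378 to 718 in young and 111 to 163 in mature leaves, with 13 of 14 against 7 of 14. Vascular markers (30 unigenes) summed to 1331 to 4919 FPKM in young and 79.5 to 242 in mature S. superba. The 18 such unigenes of C. concinna summed to 102 to 262 in young, 14.3 to 37.3 in mature full light and 28.1 to 458 in mature low light libraries. Markers of trichomes, epidermis and guard cells summed to 484 to 677 FPKM in young and 168 to 314 in mature S. superba, and to 698 to 1715 and 341 to 677 in C. concinna. Senescence markers (6 unigenes) summed to 23.9 to 53.7 FPKM in young and 82.9 to 167 in mature C. concinna, and the single one of S. superba ran from 7.78 to 16.3 and from 4.98 to 42.8. Their part in the differences below was not tested, and in whole leaves fewer cells of a type and less RNA per cell cannot be told apart.

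Unigene13627 was the most abundant unigene of mature S. superba leaves in full light and a moderate one in young leaves. Its best hit was a metallothionein-like protein of cotton (Gossypium hirsutum). Young leaves in full light held 151, 307 and 146 FPKM, and young leaves in low light held 198, 128 and 80.4 FPKM. Mature leaves in full light held 25405, 22922 and 25872 FPKM, and mature leaves in low light held 16759.8, 19699.8 and 25553 FPKM. Every mature library stood above every young library, and the lights overlapped within each age. In the order of levels within a library, it ranked 1 in all 3 mature libraries in full light, between 1 and 2 in low light, and between 220 and 1503 in young leaves.

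The ratio of group means, mature over young, was 123 in full light and 152 in low light. On the log2 scale the age change of Unigene13627 was -7.02 (SE 0.42) in full and -7.31 (SE 0.42) in low light. The median of all unigenes tested was 0.55 and 0.39 in these comparisons, so relative to it the changes were -7.57 and -7.71. The light changes of Unigene13627 were 0.57 (SE 0.42) in young and 0.28 (SE 0.42) in mature leaves, both with overlapping groups. Its difference between the light changes of the ages was 0.29 (SE 0.59).

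Unigene4583 held the corresponding place in C. concinna. Its best hit was a metallothionein-like protein 3 of sacred lotus (Nelumbo nucifera). Young leaves held 25.5, 266 and 85.15 FPKM in full light and 75.1, 40.3 and 34.6 FPKM in low light. Mature leaves held 6329, 7508 and 13159.7 FPKM in full light and 10762, 8406 and 17620.5 FPKM in low light. The lowest mature library again stood far above the highest young one, and the lights overlapped within each age. It ranked between 3 and 5 in mature leaves in full light and between 2 and 5 in low light, and between 327 and 5801 in young leaves.

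The group mean of Unigene4583 was 71.7 times as high in mature as in young leaves in full light and 245 times as high in low light. The age change was -6.66 (SE 0.66) in full and -7.92 (SE 0.66) in low light, or -6.82 and -7.65 relative to the medians of all unigenes tested, 0.17 and -0.27. The young libraries in full light were widely spread, at 125.45 ± 125.05 FPKM, and the light change of 0.81 (SE 0.66) in young leaves depended on them. It was 1.65 without young full light replicate 1 and -0.01 without replicate 2. In mature leaves the light change was -0.45 (SE 0.66), with 8999 ± 3652 FPKM in full and 12263 ± 4787 in low light.

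**Figure D1:**
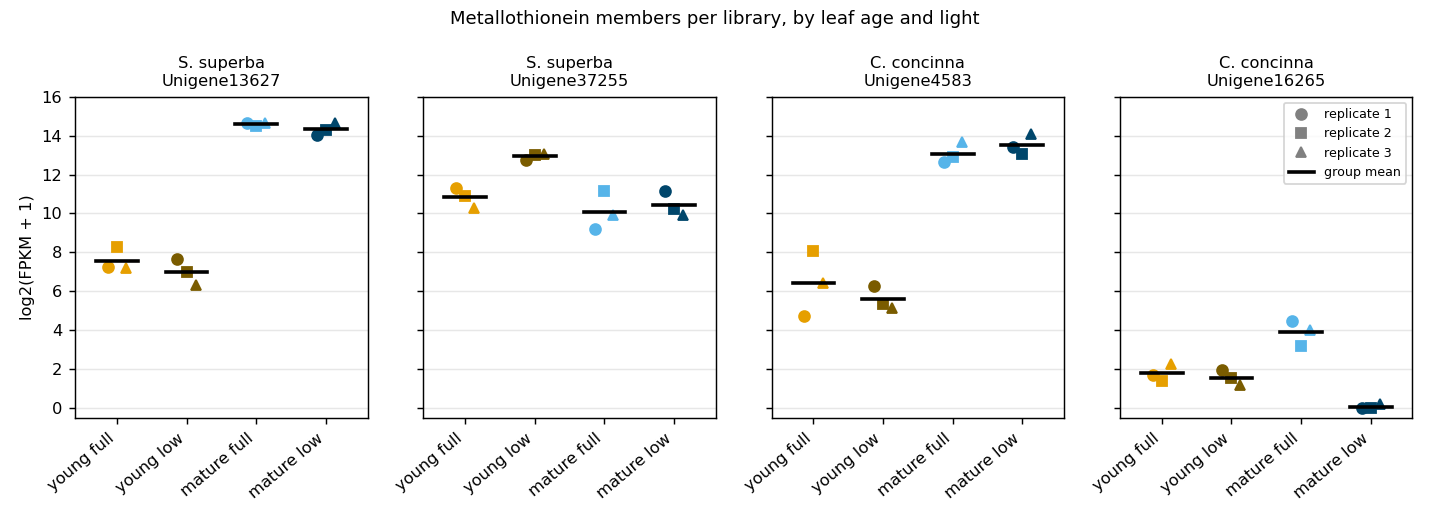
Levels of the 4 metallothionein unigenes as log2(FPKM + 1) (y axis) in each of the 12 libraries of their species, by leaf age and light (x axis). Symbols are replicates and lines are group means of the log2 values. Unigene13627 and Unigene4583 stood far higher in every mature than in every young library, Unigene37255 was highest in young leaves in low light, and Unigene16265 was at or near 0 in mature leaves in low light.

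Unigene37255, the second S. superba member, was highest in young leaves in low light. Its best hit was a metallothionein-like protein of cork oak (Quercus suber). It reached 6927, 8206 and 8402 FPKM there, against 2498, 1929.9 and 1245 FPKM in young leaves in full light. Mature leaves held 580.03, 2246 and 981 FPKM in full light and 2261, 1186 and 955 FPKM in low light. The 3 young low light libraries stood above the other 9, which overlapped across the other 3 groups. It ranked between 1 and 3 in young low light libraries, between 7 and 17 in young full light libraries, and between 22 and 120 in mature libraries.

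In young leaves Unigene37255 averaged 4.15 times as much in low as in full light, a log2 change of -2.10 (SE 0.53). In low light it averaged 5.35 times as much in young as in mature leaves, a log2 change of 2.51 (SE 0.53). In the same young leaves the mesophyll markers were also higher in low light, and those of dividing tissue lower, at 463 to 704 against 994 to 1649 FPKM, and their part in the light change was not tested. The young low light replicates 2 and 3 stood unusually close to each other across unigenes, with an SD of log2 ratios of 0.368 against 0.765 to 1.37 for the other pairs of S. superba replicates. The light change in young leaves was -2.07 without replicate 2 and -2.05 without replicate 3.

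The other groups of Unigene37255 overlapped. The age change in full light was 0.74 (SE 0.53) and moved from 0.06 after median-ratio rescaling of the libraries to 1.62 after quantile normalization. The light change in mature leaves was -0.33 (SE 0.53). It was 0.12 without mature full light replicate 1 and -0.86 without replicate 2. Its sign changed in 3 of 23 alternatives. The light change in young leaves minus that in mature leaves was -1.77 (SE 0.74).

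Unigene16265, the second C. concinna member, stayed at or below 21.3 FPKM in every library. Its best hit was the same cotton protein as that of the S. superba Unigene13627. Mature leaves held 21.3, 8.12 and 15.2 FPKM in full light, and were listed at 0, 0 and 0.17 FPKM in low light. Young leaves held 2.30, 1.62 and 3.89 FPKM in full light and 2.90, 1.90 and 1.29 FPKM in low light. The mature libraries were thus the highest of C. concinna in full light and the lowest in low light, while the young groups overlapped.

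On the log2 scale the light change of Unigene16265 in mature leaves was 3.82 (SE 0.39), and 6.64 with a pseudocount of 0.1. No fold is given against the mature low light group, which held libraries listed at 0. The age change was -2.09 (SE 0.39) in full and 1.49 (SE 0.39) in low light, opposite in sign with groups that did not overlap in either light, and the low light value was 3.86 with a pseudocount of 0.1. The light change in young leaves was 0.24 (SE 0.39).

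Other unigenes were also low in mature leaves in low light. A C. concinna unigene was counted as sharing a hit when an S. superba unigene with the same best hit reached at least 1000 FPKM and at least 100 times its own highest value, a definition set after the data were seen. It took in 17 C. concinna unigenes, of which 3 were metallothioneins, Unigene16265, CL6080.Contig1 and Unigene22973. The 14 others, among them Rubisco small subunit and chlorophyll a-b binding unigenes, summed to 24.4, 26.2 and 21.2 FPKM in young leaves in full light and to 26.0, 32.3 and 35.6 FPKM in low light. In mature leaves they summed to 52.3, 20.9 and 23.0 FPKM in full light and to 0.60, 2.66 and 1.04 FPKM in low light. The mature low light libraries, in which Unigene16265 was listed at 0 to 0.17, were thus the lowest for this sum as well. Unlike Unigene16265, the sum in mature leaves in full light overlapped that in young leaves.

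Of the 11 such unigenes tested, 8 were lowest in mature leaves in low light without overlap with any other group, 6 of them no metallothioneins, while 0.885% of all 53005 unigenes tested in C. concinna were. The set was chosen after its values were seen and gets no test. Unigene7495, a Rubisco small subunit, held 8.21 to 21.4 FPKM in mature leaves in full light and 0.19 to 0.82 in low light. CL542.Contig12, a chlorophyll a-b binding protein, held 4.56 to 8.09 and 0.17 to 0.78 FPKM. Both were lowest in the libraries in which Unigene16265 was lowest. The ratio of Unigene16265 to CL6080.Contig1 was 3.36 to 6.79 in mature and 0.316 to 2.22 in young leaves in full light. The ratio of their S. superba counterparts, Unigene13627 to Unigene37255, was 10.2 to 43.8 in mature and 0.0604 to 0.159 in young leaves in full light. In low light the ratio in C. concinna was 0 to 0.327 in mature and 0.346 to 0.868 in young leaves, while that in S. superba was 7.41 to 26.8 and 0.00957 to 0.0286. The ratios were thus higher in mature leaves in both species in full light, and in low light higher in mature leaves only in S. superba. A transcript of C. concinna and a trace of S. superba sequence cannot be told apart for Unigene16265 in these tables, and neither was tested.

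**Figure D2:**
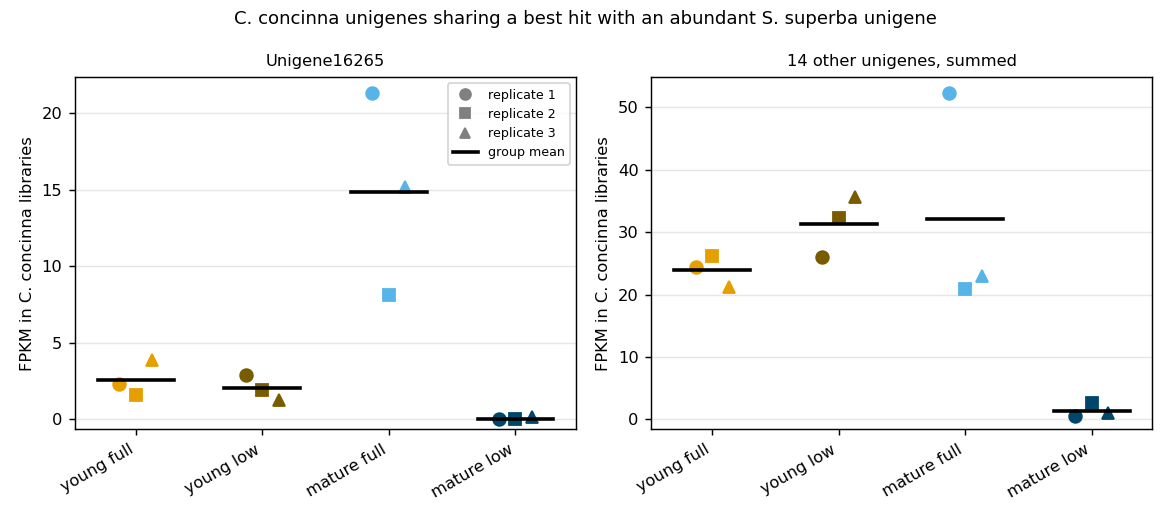
FPKM in the 12 C. concinna libraries (y axis, linear, each panel with its own range) by leaf age and light (x axis), for Unigene16265 (left) and for the sum of 14 other unigenes that share a best hit with an abundant S. superba unigene (right). Symbols are replicates and lines are group means. Both panels fall to near 0 in mature leaves in low light, with sums of 0.60 to 2.66 FPKM on the right, and mature full light replicate 1 is the highest library in both.

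Counted over the members, 1 of 2 in S. superba had groups without overlap for light in young leaves (32.1% of all unigenes tested there), 0 of 2 for light in mature leaves (15.3%), 1 of 2 for age in full light (53.3%) and 2 of 2 for age in low light (50.9%). In C. concinna the counts were 0 of 2 for light in young leaves (26.7%), 1 of 2 for light in mature leaves (10.5%), and 2 of 2 for age in full light (44.2%) and in low light (48.8%). These values went into the choice of the members, and nothing is read from the counts.

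The make-up of the metallothionein pool differed between the leaf ages in both species. In S. superba, Unigene37255 made up 70.0 ± 9.53% of the summed FPKM of the 8 metallothioneins in young leaves in full light and 90.2 ± 1.21% in low light. In mature leaves Unigene13627 made up 83.6 ± 2.35% in full and 75.6 ± 10.4% in low light, and Unigene37255 only 4.37 ± 3.16% and 5.57 ± 2.93%. The leading S. superba unigene in young leaves was thus a minor one in mature leaves.

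In C. concinna the leading unigenes of young leaves were no members. Unigene1829, whose best hit was a willow protein named MT2A, made up 57.5 ± 8.97% of the pool in young leaves in full light and 42.3 ± 11.1% in low light. Unigene17274, a type 2 metallothionein by its hit, made up 31.2 ± 2.87% and 48.5 ± 8.65%. In mature leaves Unigene4583 made up 70.5 ± 10.9% in full and 75.8 ± 9.06% in low light. The ratio of Unigene4583 to Unigene1829 was 0.0120 to 0.145 in young leaves in full light and 0.0187 to 0.0718 in low light, against 1.86 to 5.94 and 2.92 to 8.26 in mature leaves.

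As a share of the whole library, metallothioneins took 0.331 ± 0.0696% of summed FPKM in young S. superba leaves in full light and 1.03 ± 0.103% in low light, against 3.67 ± 0.226% and 3.21 ± 0.531% in mature leaves. The lowest mature library, at 2.78%, stood above the highest young one, at 1.09%. In C. concinna the shares were 0.383 ± 0.0486% and 0.399 ± 0.0445% in young and 1.37 ± 0.227% and 1.86 ± 0.493% in mature leaves. In mature C. concinna a proline-rich protein (CL2130.Contig2) took 7.29, 22.5 and 30.8% of summed FPKM in the full light libraries and 8.94, 10.5 and 7.43% in the low light ones. With the most abundant unigene of each library left out of the total, the share of metallothioneins in mature leaves in full light averaged 1.76%. By the same measure the mature low light libraries held 1.92, 1.61 and 2.60%.

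**Figure D3:**
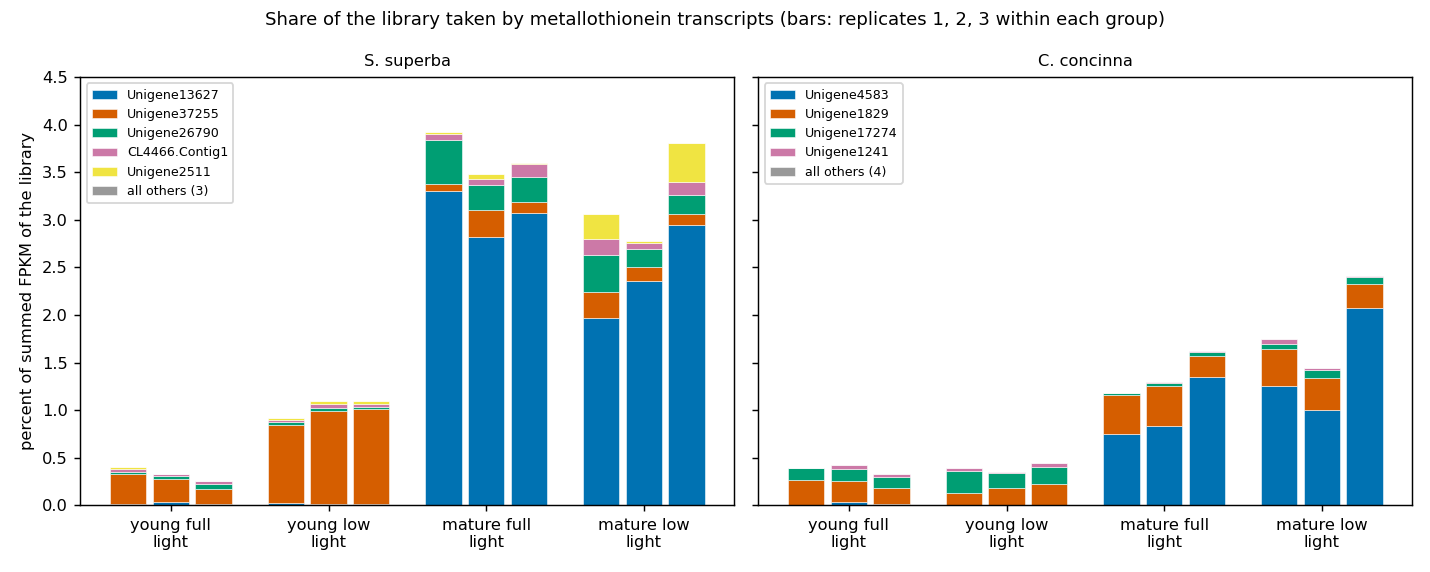
Percent of the summed FPKM of each library taken by metallothionein unigenes (y axis), stacked by unigene, for the 12 libraries of S. superba (left) and of C. concinna (right) grouped by leaf age and light (x axis). Each bar is 1 library. Unigene37255 fills most of the young S. superba bars and Unigene13627 most of the mature ones, while Unigene1829 and Unigene17274 fill most of the young C. concinna bars and Unigene4583 most of the mature ones.

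The remaining metallothioneins, 6 in each species, were not chosen, and 11 of these 12 passed the filter for testing (Unigene32908, at most 0.70 FPKM, did not). In S. superba 2 of 5 were called higher in mature leaves in full light and the same count in low light, and 0 were called higher in young leaves. Of all unigenes tested, 46% in full and 38.7% in low light were called in either direction. Those called higher in mature leaves made up 9.67% and 9.19%. Unigene26790, a type 2 metallothionein by its hit, rose from 252 ± 123 FPKM in young to 2656 ± 814 in mature leaves in full light (log2 change -3.45, SE 0.40, adjusted p = 3.68e-05, limma). In low light it rose from 238 ± 43.0 to 2238 ± 1001 FPKM (log2 change -3.16, adjusted p = 0.000116, limma). CL4466.Contig1, also type 2 by its hit, rose from 245 ± 41.8 to 695 ± 388 FPKM in full light (log2 change -1.38, adjusted p = 0.0218, limma) and from 298 ± 98.2 to 1042 ± 426 in low light (log2 change -1.75, adjusted p = 0.00788, limma). The first of these calls of CL4466.Contig1 was lost without young full light replicate 2 or 3 or mature full light replicate 3 (adjusted p = 0.0692, 0.0515 and 0.0853, limma), and the second with the replicates 1 of low light left out (adjusted p = 0.0913, limma). Both unigenes thus moved with age in the direction of Unigene13627 and not in that of Unigene37255.

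Unigene2511 was the least even of the abundant S. superba metallothioneins. Its best hit was a ginseng (Panax ginseng) protein. Mature low light libraries held 2249.96, 187 and 3486 FPKM, and mature full light libraries held 165, 439 and 42.9 FPKM. It was not called in any comparison (adjusted p = 0.0567 for age and 0.228 for light in mature leaves, the lowest in low light and between lights, limma). Without mature low light replicate 2 both were called, with adjusted p = 0.00331 and 0.0403 (limma). The age difference in low light was called in 7 alternatives in all, among them median-ratio rescaling, with adjusted p = 0.00331 to 0.0499 (limma). Unigene25157 and Unigene796 stayed at or below 5.30 and 2.87 FPKM and were listed at 0 in all mature full light libraries. Each shares its best hit with an abundant C. concinna metallothionein, Unigene17274 and Unigene1829. Neither was called for age. With a pseudocount of 0.1 both were called higher in young leaves in full light, with adjusted p = 0.00988 and 0.0228 (limma). Unigene25157 was also called there without mature low light replicate 3 (adjusted p = 0.0332, limma).

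In C. concinna the leading metallothioneins of young leaves changed with age in opposite directions. Unigene17274 fell from 967 ± 67.7 FPKM in young to 282 ± 90.04 in mature leaves in full light (log2 change 1.83, SE 0.31, adjusted p = 0.000855, limma). In low light it fell from 1674 ± 370.2 to 581 ± 154 FPKM (log2 change 1.54, adjusted p = 0.00219, limma). Unigene1829 rose in low light, from 1452 ± 403 FPKM in young to 2784 ± 609.96 in mature leaves (log2 change -0.95, adjusted p = 0.0343, limma). In full light it held 1793 ± 351 and 3101 ± 779 FPKM, which did not pass (log2 change -0.78, adjusted p = 0.0905, limma). The full light change was called after rescaling to the sum outside the 100 most abundant unigenes (log2 change -1.15, adjusted p = 0.024, limma). The low light call was lost in 9 alternatives, with adjusted p = 0.0505 to 0.301 (limma), among them median-ratio rescaling, quantile normalization, only the groups compared, and leaving out mature or young low light replicate 1 or 2. Unigene1241, type 2 by its hit, was not called, with 226 ± 161 FPKM in young and 53.4 ± 42.5 in mature leaves in full light. It was called there without young full light replicate 1 (log2 change 2.78, adjusted p = 0.015, limma) and without mature full light replicate 3 (log2 change 2.52, adjusted p = 0.0443, limma).

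Among all 6 other C. concinna metallothioneins tested, 1 was called higher and 1 lower in young leaves in full light (28.4% of all unigenes tested were called), and 2 higher and 1 lower in low light (37.8%). The remaining 4, which do not share a hit with an abundant S. superba unigene, held 1 called higher and 0 called lower in full light, and in low light 1 called each way. CL6080.Contig1, which shares its hit with Unigene37255, fell from 3.65 ± 0.283 FPKM in young to 0.533 ± 0.15 in mature leaves in low light (log2 change 1.60, adjusted p = 0.00357, limma). Unigene22973, type 2 by its hit, held 3.31 to 4.31 FPKM in mature leaves in full light and was listed at 0 to 1.26 in young leaves and at 0 in all mature low light libraries. It reached 1 FPKM in only 1 library outside mature full light, so it entered the test through the group in which it was high, and its calls (1 of those for age in full light and 1 for light) are counted but not read as results. CL6080.Contig2, with a grape protein as best hit, stayed at or below 1.45 FPKM and was listed at 0 in all mature low light libraries. It was not called for age (adjusted p = 0.0676 in full and 0.111 in low light, limma). It was called in full light, higher in mature leaves, in 4 alternatives (adjusted p = 0.0355 to 0.0413, limma), among them the 3 rescalings and leaving out mature full light replicate 2. In low light it was called, higher in young leaves, with a pseudocount of 0.1 (adjusted p = 0.0342, limma) and after quantile normalization (adjusted p = 0.017, limma). The sum of both CL6080 contigs was called as well (adjusted p = 0.00159, limma). In young leaves in low light CL6080.Contig1 was the larger part of it, at 3.65 against 0.577 FPKM.

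Light changed none of the other metallothioneins of S. superba at the threshold, and in C. concinna the single call was that of Unigene22973 in mature leaves. In S. superba 0 of 5 were called in young leaves (5.33% of all unigenes tested were) and 0 of 5 in mature leaves (0.855%). Unigene2511 was called for light in mature leaves without mature low light replicate 2, as given above. With a pseudocount of 0.1 Unigene796 was called there (log2 change -3.48, adjusted p = 0.0489, limma). In C. concinna 0 of 6 were called in young (0.0302%) and 1 of 6 in mature leaves (0.0566%). At an unadjusted p under 0.05, 22.3% and 13.6% of S. superba unigenes and 17.9% and 6.59% of C. concinna unigenes passed in these comparisons. Unigene17274 stood lower in full than in low light without overlap in both ages, at 967 against 1674 FPKM in young and 282 against 581 FPKM in mature leaves, but it was not called (adjusted p = 0.230 and 0.410, limma).

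Other genes of metal handling were taken from 15 lists of words in the hit descriptions, which covered chelator synthesis, metal storage, transporters, pumps, chaperones and copper enzymes. They matched 76 unigenes in S. superba, 69 of them tested, and 107 in C. concinna, 101 of them tested. In S. superba, 18 were higher and 10 lower in young than in mature leaves in full light (40.6% called, against 46% of all unigenes tested), and 20 and 13 in low light (47.8% against 38.7%). In C. concinna the counts were 19 and 8 in full light (26.7% against 28.4%) and 19 and 17 in low light (35.6% against 37.8%). The list medians of the age change were 0.19 and 0.29 in S. superba, beside 0.55 and 0.39 over all unigenes tested, and 0.25 and -0.29 in C. concinna, beside 0.17 and -0.27. The balance of directions depended on the scaling. After median-ratio rescaling the counts were 14 and 16 (full light) and 14 and 15 (low light) in S. superba, and 15 and 12 and 21 and 15 in C. concinna. After rescaling to the sum outside the 100 most abundant unigenes they were 15 and 12 and 17 and 14 in S. superba, and 15 and 15 and 15 and 26 in C. concinna. After quantile normalization they were 13 and 14 and 12 and 14 in S. superba, and 15 and 15 and 17 and 18 in C. concinna. Single libraries moved them too. In S. superba the full light counts were 19 and 6 without young full light replicate 1, and the low light counts were 17 and 6 without mature low light replicate 1, 13 and 8 without young low light replicate 2 and 14 and 7 without replicate 3. The low light counts of C. concinna were 15 and 11 without mature low light replicate 3, and 12 and 10 with the replicates 1 of low light left out. Metal-handling unigenes were thus called in both directions with leaf age in both species.

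Yellow stripe-like transporters, which move metals bound to nicotianamine, counted 1 higher and 6 lower in young leaves of 8 tested in S. superba in low light (87.5% called, against 38.7% of all unigenes tested), and 1 and 1 in full light (25% against 46%). In C. concinna 0 were higher and 4 lower of 10 tested in low light (40% against 37.8%), and 1 and 1 in full light (20% against 28.4%). The C. concinna shares were near or below those of all unigenes. The low light count of lower unigenes in S. superba was 3 without young low light replicate 2, 2 without replicate 3, 2 without mature low light replicate 1 and 3 with the replicates 1 of low light left out. In C. concinna it was 2 without mature low light replicate 3, without young low light replicate 2 or with the replicates 1 of low light left out. In full light the count of lower unigenes in S. superba ran from 0 to 3 over the alternatives, at 0 without any single low light library, mature full light replicate 2 or 3 or young full light replicate 1. That in C. concinna ran from 1 to 3, at 3 without mature full light replicate 1. CL6571.Contig1, similar to yellow stripe-like 3, rose from 14.8 ± 3.44 FPKM in young to 114 ± 29.4 in mature C. concinna leaves in full light (log2 change -2.85, adjusted p = 7.33e-05, limma), and from 6.91 ± 2.40 to 117 ± 41.2 in low light (adjusted p = 5.63e-06, limma). 

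Zinc and manganese carriers went in both directions. ZIP transporters, which bring zinc into the cytosol, counted 2 higher and 2 lower in young leaves of 8 tested in S. superba in full light. This was 50% called, against 46% of all unigenes tested. In low light they counted 3 and 2 (62.5% against 38.7%). Of 17 tested in C. concinna, the counts were 0 and 2 in full light (11.8% against 28.4%), and in low light 1 and 4 (29.4% against 37.8%). Unigene30711 of C. concinna, similar to zinc transporter 2, rose from 1.96 ± 1.98 to 54.8 ± 14.6 FPKM in full light (log2 change -4.40, adjusted p = 1.42e-05, limma). Unigene3563 of S. superba, a zinc transporter-like protein, fell from 61.1 ± 12.9 FPKM in young to 10.9 ± 5.41 in mature leaves in full light (log2 change 2.50, adjusted p = 0.000187, limma). Metal tolerance proteins, which carry metals out of the cytosol, counted 4 higher and 1 lower in young leaves of 10 tested in S. superba in full light (50% against 46%). In low light they counted 3 and 1 (40% against 38.7%). Of 14 tested in C. concinna, 0 were called in full light (against 28.4%), and in low light 1 each way (14.3% against 37.8%). Apart from ZIP transporters of S. superba in low light, these shares were near or below those of all unigenes. CL4303.Contig1 of S. superba, similar to metal tolerance protein 10, fell from 23.2 ± 2.61 to 2.45 ± 1.12 FPKM in full light (log2 change 2.87, adjusted p = 0.00014, limma). CL2684.Contig1, similar to metal tolerance protein 11, a manganese carrier, rose from 26.4 ± 5.62 to 165 ± 16.9 FPKM in S. superba in low light (log2 change -2.62, adjusted p = 2.86e-06, limma).

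Heavy metal-associated isoprenylated proteins, which bind metals through a metal-associated domain, were called in both directions. In S. superba 4 were higher and 1 lower in young leaves of 8 tested in full light (62.5% called, against 46% of all unigenes tested) and 4 and 2 in low light (75% against 38.7%). Over all unigenes tested in S. superba most calls were higher in young leaves as well. There 4930 of 23426 calls were lower in young leaves in full light and 4684 of 19730 in low light. In C. concinna 6 and 0 of 17 were called in full light (35.3% against 28.4%) and 8 and 2 in low light (58.8% against 37.8%). The C. concinna count of higher unigenes in low light was 5 without mature or young low light replicate 1, singly or together. The lower count in S. superba in full light was 0 in 10 of the 12 omissions of a single library. In low light the lower count was 1 in S. superba without young low light replicate 1 and without mature replicate 1 or 2 of that light, and 1 without mature low light replicate 3 or young low light replicate 2 in C. concinna. Unigene6786 of S. superba fell from 89.5 ± 25.1 FPKM in young to 3.82 ± 3.05 in mature leaves in full light (log2 change 4.39, adjusted p = 4.23e-05, limma). Unigene652 of S. superba went the other way in low light, from 1.14 ± 0.4 FPKM in young to 28.4 ± 6.99 in mature leaves (log2 change -3.77, adjusted p = 0.00121, limma). Unigene14799 of C. concinna fell in full light from 19.6 ± 3.68 to 0.0467 ± 0.0808 FPKM (log2 change 4.29, adjusted p = 8.11e-07, limma). The copper chaperones and copper pumps that the rule named for age were higher in young leaves. The calls of their lists went both ways. In S. superba copper chaperones counted 3 higher and 0 lower in young leaves of 9 tested in full light (33.3% called, against 46%). In low light they counted 3 and 1 (44.4% against 38.7%). Heavy metal pumps counted 3 and 2 of 9 in full light (55.6% against 46%) and 2 and 1 in low light (33.3% against 38.7%). Unigene18209 of S. superba, a chloroplast-targeted copper chaperone-like protein, fell from 14.2 ± 2.89 to 0.15 ± 0.21 FPKM (log2 change 3.72, adjusted p = 3.00e-06, limma). CL4569.Contig1 of S. superba, a cadmium/zinc pump, rose in low light from 1.17 ± 0.54 FPKM in young to 12.8 ± 7.06 in mature leaves (log2 change -2.53, adjusted p = 0.00251, limma). Its call was lost when contigs of a cluster were summed (adjusted p = 0.162, limma). CL5352.Contig1 of C. concinna, similar to the copper pump PAA1 of the chloroplast, fell from 13.4 ± 1.79 to 4.51 ± 1.96 FPKM (log2 change 1.44, adjusted p = 0.00419, limma). Heavy metal pumps of C. concinna counted 5 higher and 0 lower in young leaves of 14 tested in full light (35.7% called, against 28.4%). In low light they counted 2 and 2 (28.6% against 37.8%). Of 3 copper chaperones tested there, 1 was higher and 0 lower in each light (33.3%).

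The calls of copper/zinc superoxide dismutases and plastocyanins were lower in young leaves in S. superba and went both ways in C. concinna. Of 6 such dismutases tested in S. superba, 0 were higher and 1 lower in young leaves in full light (16.7% called, against 46% of all unigenes tested). In low light 0 were called (against 38.7%). Of 6 tested in C. concinna, the counts were 3 and 2 in full light (83.3% against 28.4%), and in low light 3 and 1 (66.7% against 37.8%). Unigene119 of S. superba, a copper/zinc superoxide dismutase, rose from 16.1 ± 2.87 FPKM in young to 68.0 ± 21.03 in mature leaves in full light (log2 change -1.98, adjusted p = 0.000165, limma). CL5748.Contig1 of C. concinna, another such enzyme, fell from 596 ± 61.5 to 179 ± 59.5 FPKM in low light (log2 change 1.77, adjusted p = 0.000246, limma). Unigene4318 of S. superba, a plastocyanin that carries electrons with copper in the thylakoid, rose from 457 ± 120.4 in young to 1227 ± 331 FPKM in mature leaves in full light (log2 change -1.43, adjusted p = 0.00526, limma). It was the only plastocyanin tested in S. superba and was not called for age in low light. Of 2 tested in C. concinna, 1 was lower in young leaves in full light (50% against 28.4%) and 1 higher in low light (50% against 37.8%).

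**Figure D4:**
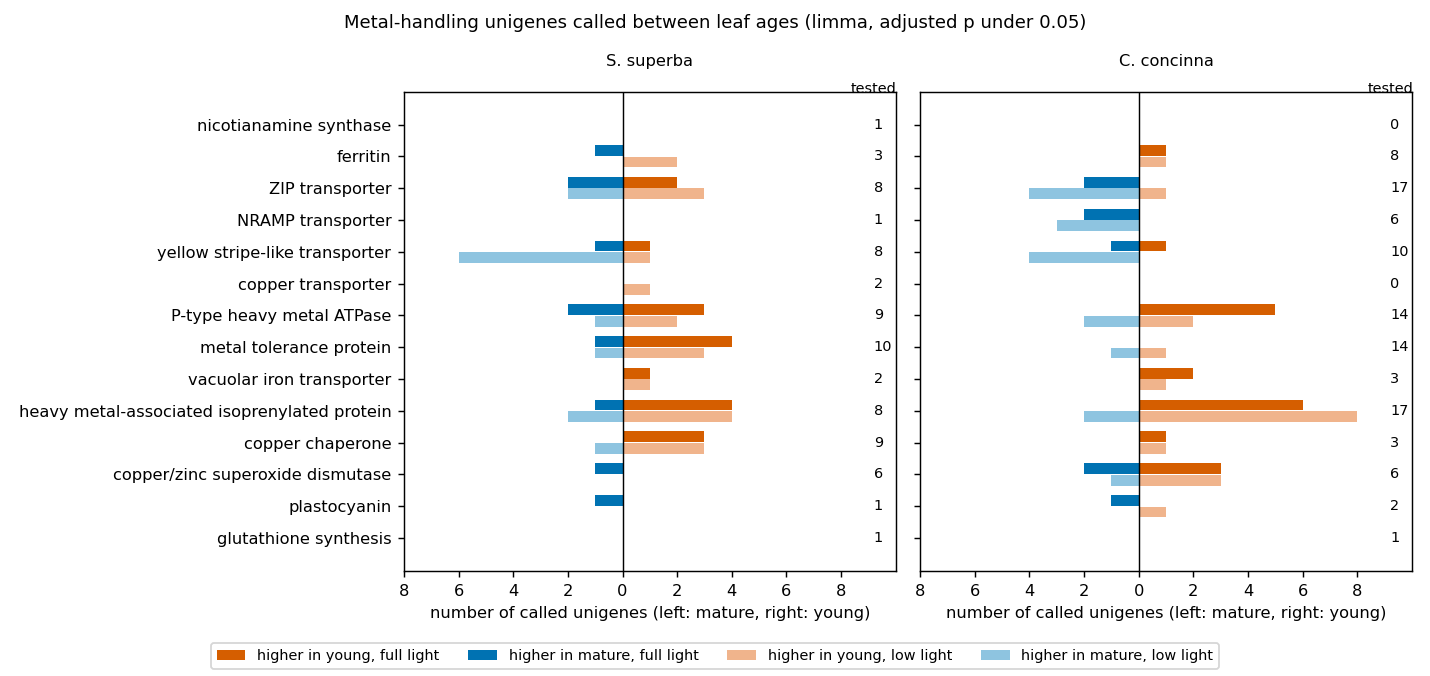
Number of metal-handling unigenes called between leaf ages (x axis, limma with adjusted p under 0.05), higher in young leaves to the right and higher in mature leaves to the left, for each list of words (y axis) in full and low light. The number of unigenes tested stands at the right of each panel. Yellow stripe-like transporters extend to the left in low light, by 6 unigenes in S. superba and by 4 in C. concinna, and heavy metal-associated isoprenylated proteins extend further to the right than to the left, by 4 against 1 or 2 in S. superba and by 6 against 0 and 8 against 2 in C. concinna. Over all unigenes tested in S. superba, most calls were also higher in young leaves, in full and in low light.

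For light, 4 metal-handling unigenes were higher and 3 lower in full light in young S. superba leaves (10.1% called, against 5.33% of all), and 0 in mature S. superba leaves and in either age of C. concinna. In young S. superba leaves the counts were 1 and 0 without young low light replicate 2, 1 and 1 without replicate 3, 1 and 2 without young full light replicate 2, 1 and 1 without replicate 3, and 3 and 1 with the replicates 1 of low light left out. CL33.Contig1, similar to the metal-nicotianamine transporter YSL7, averaged 123 ± 36.7 FPKM in full light and 37.1 ± 0.749 FPKM in low light (log2 change 1.66, adjusted p = 0.00634, limma). Unigene35645, a chloroplast-targeted copper chaperone, averaged 1.63 ± 1.27 FPKM in full light and 15.6 ± 4.42 FPKM in low light (log2 change -2.77, adjusted p = 0.0156, limma). Unigene4318 averaged 457 ± 120.4 FPKM in full light and 1531 ± 305 FPKM in low light (log2 change -1.76, adjusted p = 0.0181, limma). Without young low light replicate 2 the last pair of calls was lost, with adjusted p = 0.0711 and 0.0865 (limma). Unigene35645 also lost its call without young low light replicate 3 (adjusted p = 0.0614, limma) and with a pseudocount of 0.1 (adjusted p = 0.0679, limma). For Unigene4318 this happened without young full light replicate 3 (adjusted p = 0.0627, limma) and with the replicates 1 of low light left out (adjusted p = 0.0564, limma). Unigene35645 and Unigene4318 thus averaged more in low light, as Unigene37255 did, while 4 called unigenes, CL33.Contig1 among them, were higher in full light.

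The unigenes whose levels followed each member most closely were found by Pearson's r over the 12 libraries of the species on the log2(FPKM + 1) scale, among 8249 unigenes with a usable description and a group mean of at least 10 FPKM in S. superba and 8566 in C. concinna. The libraries are shared by all unigenes and fall into 2 leaf ages, so a high r describes a common split by age or group. The 5 nearest to Unigene13627 were a non-specific phospholipase C1 (Unigene19481, r 0.996), a Rubisco activase (CL430.Contig4, r 0.995), a galactinol synthase (CL233.Contig2, r 0.994), a dehydrodolichyl diphosphate synthase 6 (Unigene2085, r 0.993) and an aminotransferase TAT2 (Unigene9473, r 0.993). All 5 were low in young and high in mature leaves, with the Rubisco activase at 31.9 ± 5.75 FPKM in young and 1998.5 ± 439 in mature leaves in full light.

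Nearest to Unigene4583 were 2 contigs of a leucine-rich repeat receptor-like kinase (CL1805.Contig4, r 0.993, and CL1805.Contig3, r 0.991), an IBH1-like transcription factor (CL2210.Contig1, r 0.993), a BASS3 cotransporter of the chloroplast (Unigene17959, r 0.988) and a transmembrane receptor (Unigene33970, r 0.987). The transcription factor stood at 3.25 ± 2.94 FPKM in young and 86.5 ± 16.4 in mature leaves in full light. For Unigene37255 the nearest were a phospholipase A1-IIdelta (CL5421.Contig1, r 0.968), an FtsZ division protein (Unigene5839, r 0.948), an APETALA2 protein (CL1551.Contig3, r 0.947), a phosphate ABC transporter (Unigene22277, r 0.942) and a TBL1Y-like protein (Unigene457, r 0.937). The phospholipase was highest in young leaves in low light, at 51.0 ± 7.44 FPKM against 17.2 to 22.4 FPKM on average in the other groups. After median-ratio rescaling r fell to 0.631 for the FtsZ protein and was at least 0.897 for the other 4.

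Unigene16265 had no near match. The closest was a glutamate decarboxylase 1 (Unigene26717, r 0.872), followed by an Adagio protein 1 (Unigene4573, r 0.810), a kinase (Unigene5114, r 0.795), the Rubisco small subunit Unigene7495 (r 0.785) and a nucleoredoxin 1-like protein (CL3292.Contig1, r 0.775). Unigene7495 is one of the unigenes that share a hit with an abundant S. superba unigene. The glutamate decarboxylase ranged only from 53.6 ± 11.9 FPKM in mature leaves in low light to 101 ± 15.6 in mature leaves in full light.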

How the data were processed

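The authors deposited FPKM per library and unigene, made with RSEM 1.2.12 per the submitters' processing notes, with a column for each library per the file headers. How reads were filtered, assembled and aligned is not given in the sources used here. Absolute depth is unknown, so there are no counting intervals. No reference genome was used, so names are those of best protein hits, coordinates and sequences are not given, and reads could be split among near-identical family members. The test took in the 50970 S. superba and 53005 C. concinna unigenes that reached 1 FPKM in 3 or more libraries. Their log2(FPKM + 1) values were fitted per species with limma 3.58.1 in R 4.3.3, as 4 group means with a common, trended and moderated variance. P-values are two-sided and were adjusted by Benjamini-Hochberg across the species' tested unigenes, and an adjusted p under 0.05 was a call. The fit was tested on simulated data.

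Named were the 4 members, every other metallothionein, per metal-handling list and comparison the called unigene with the largest absolute log2 change and a mean of at least 5 FPKM in its higher group (39 pairs, some of which are given), the 5 unigenes nearest to each member, and a unigene outranking the members. The unigenes sharing a hit were chosen after their values were seen. Members, lists and tests were chosen with earlier results of these data known. Word patterns take in look-alikes, such as EIN2-like proteins in the NRAMP list, and phytochelatin synthase matched 0 unigenes. Deviations of libraries with the same replicate number correlated at -0.03 to 0.32 in S. superba and at -0.24 to 0.26 in C. concinna, so the numbers were not taken as pairs. Python 3.11.15, pandas 2.3.3, numpy 2.4.6 and matplotlib 3.10.9 were used. Alternatives were other pseudocounts, filters and scalings, a replicate block, no trend, 2 groups per fit, summed contigs and libraries left out.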

Additional observations from a re-analysis of the deposited data

Results flagged for a closer look

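Unigene16265 of C. concinna changed with leaf age in opposite directions in the 2 lights: every mature library stood above every young one in full light and below every young one in low light. The log2 age change in low light exceeded that in full light by 3.58, which as the light change in young minus that in mature leaves was -3.58 (SE 0.55). With a pseudocount of 0.1 it was -6.32, and the mature low light libraries were listed at 0 to 0.17 FPKM. The difference was not tested, because measured levels went into the choice of this unigene.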

How the results depend on the processing

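Every alternative kept the direction of the age changes of Unigene13627 (log2 -7.70 to -5.86 in full and -7.78 to -6.33 in low light) and Unigene4583 (-7.48 to -5.82 and -8.31 to -7.45), of the changes of Unigene37255 with light in young leaves (-2.33 to -1.64) and with age in low light (2.04 to 3.11), and of the light change of Unigene16265 in mature leaves (3.53 to 6.64). Depth is unknown, which limits what values near 0 can show. Among metal-handling unigenes, only the named ones with the largest change per list and comparison were followed singly. Of 49 called results of these and of the other metallothioneins, 14 were lost under at least 1 alternative. The age change of CL5595.Contig2 in full light turned from -2.78 to 0.68 when contigs of a cluster were summed.

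Of 108 counts of calls under other settings, 80 were within 1.5 times of the reported count, and the cause of the other shifts was not tested unless stated. In S. superba, light calls in young leaves (2717) became 1734 with the replicates 1 of low light left out and 1303 with a pseudocount of 0.1, and 388 to 3382 with single libraries left out, fewest without young low light replicate 2. Light calls in mature leaves (436) became 117 with the replicates 1 of low light left out and 22 with only the groups compared, and 120 to 485 with single libraries left out. The difference between the ages in the light change (822 calls) gave 239 with the replicates 1 of low light left out, 476 with a pseudocount of 0.1, and 60 to 699 with single libraries left out. Age calls (23426 in full and 19730 in low light) became 14412 and 12159 at a mean FPKM of at least 5, which tested only 23021 unigenes, and 20536 to 23581 and 15189 to 20710 with single libraries left out.

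In C. concinna, light calls in young leaves (16) became 30 with a pseudocount of 0.1, 7 with only the groups compared, 6 at a mean FPKM of at least 5, 10 with summed contigs, and 2 to 64 with single libraries left out. Light calls in mature leaves (30) became 10 with the replicates 1 of low light left out, 8 with only the groups compared, 13 at a mean FPKM of at least 5, 15 with summed contigs, 46 after quantile normalization, and 9 to 52 with single libraries left out. The difference between the ages (3 calls) gave 1 at a mean FPKM of at least 5, 0 with summed contigs, 5 after median-ratio rescaling, 7 after quantile normalization and 1 to 9 with single libraries left out. Age calls (15032 in full and 20044 in low light) became 9153 and 10289 at a mean FPKM of at least 5, which tested 19540 unigenes. In low light they became 11177 with the replicates 1 of low light left out, and with single libraries left out 11195 to 16318 and 13830 to 22708.

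With the replicate number as a block, light calls in mature S. superba leaves fell to 262 and the difference between the ages to 331, and C. concinna light calls to 10 in young and 10 in mature leaves. The block took away 1 call of a named unigene (Unigene22973 for light in mature leaves, adjusted p = 0.0851, limma) and added 0.

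With the members alone, their share of summed FPKM was 0.261% in young full, 3.22% in mature full and 2.60% in mature low light in S. superba, and 0.0155% in young full, 0.981% in mature full and 0.00598% in young low light in C. concinna. The share of all 8 C. concinna metallothioneins in mature full light was 1.76% without the most abundant unigene.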

Other observations

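The counterpart of the shared hits was seen in the S. superba table. By the same definition 21 S. superba unigenes shared a hit with an abundant C. concinna unigene, among them the metallothioneins Unigene25157, Unigene796 and Unigene32908. The 18 others summed to 17.7 to 45.6 FPKM in young leaves in full light, 34.55 to 49.2 FPKM in young leaves in low light, 22.2 to 51.9 FPKM in mature leaves in full light and 29.3 to 69.8 FPKM in mature leaves in low light. Of 14 tested, 5 were lowest in mature leaves in full light without overlap, 3 of them no metallothioneins, against 5.26% of all unigenes tested in S. superba. The 3 metallothioneins were listed at 0 in all mature full light libraries, while the sum of the 18 others was not near 0 there.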
